A study of Homo sapiens with 8 samples.

Results

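The genes described here are the 4 CLK kinases (CLK1, CLK2, CLK3 and CLK4) and 6 genes whose transcripts are known for introns that stay in place after the rest of the RNA has been spliced (ARGLU1, RSRP1, NKTR, PNISR, LUC7L3 and OGT). They were picked by gene name, and each of the 10 names matched 1 row among the 62649 genes of the table. All 10 passed the filter on low values (at least 1 TPM in 2 or more libraries), which 19122 genes passed. RNA came from AsPC-1 and PANC-1, a pair of established lines of human pancreatic cancer cells labelled WT. The cells were grown for 3 days as spheroids in methylcellulose medium and then received, for 24 h, vehicle, 10 µM roseoflavin, 1 nM trametinib or both compounds. Roseoflavin is an antibiotic analogue of riboflavin, and trametinib inhibits the MEK kinases upstream of ERK. Each line and treatment had 1 library, so no group had replicates, and each line is a single culture lineage.

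CLK kinases phosphorylate SR proteins, the arginine- and serine-rich factors that help the spliceosome choose splice sites, and so set how active those factors are in the nucleus. Detained introns are introns that keep an otherwise finished, polyadenylated transcript in the nucleus, from where it can later be spliced or destroyed. CLK1, CLK4 and OGT are textbook cases: part of their RNA waits in that form, and the pool responds to kinase activity or, for OGT, to the level of O-GlcNAc. The table gives 1 value per gene, so the spliced and the intron-containing forms of a gene could not be told apart.

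The annotation shows where such introns lie. GENCODE 29 (GRCh38) lists at least 1 transcript of the class "retained intron" for 8 of the 10 genes, and for 54.8% of the 13501 protein-coding genes tested. NKTR had 13 such transcripts, CLK1 and CLK3 8 each, CLK4 7, OGT 5, RSRP1 4, LUC7L3 3 and ARGLU1 1, while CLK2 and PNISR had 0. In 7 of the genes, 16 introns of the main coding transcript lay wholly inside an exon of a retained-intron transcript. In CLK1, CLK3 and CLK4 these introns included the pair that flanks exon 4, an exon that CLK transcripts can skip and whose loss shifts the reading frame. Exon 4 is shown for all 4 kinases, since the kept or skipped exon and its flanking introns separate the RNA forms of these genes. The sequences are the GENCODE 29 transcripts, written 5′ to 3′ on the strand of the gene, and all 4 exons lie within the coding sequence.
CLK1 exon 4: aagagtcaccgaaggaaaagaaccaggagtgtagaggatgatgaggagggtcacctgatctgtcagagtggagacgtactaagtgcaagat
CLK4 exon 4: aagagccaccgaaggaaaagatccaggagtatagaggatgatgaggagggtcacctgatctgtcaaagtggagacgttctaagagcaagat
CLK2 exon 4: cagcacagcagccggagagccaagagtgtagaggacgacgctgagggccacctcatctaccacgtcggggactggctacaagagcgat
CLK3 exon 4: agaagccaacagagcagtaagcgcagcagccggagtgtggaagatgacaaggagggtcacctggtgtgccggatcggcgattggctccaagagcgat

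CLK1 exon 4 is at chr2:200860125-200860215 (minus strand), CLK4 exon 4 at chr5:178617344-178617434 (minus strand), CLK2 exon 4 at chr1:155268708-155268795 (minus strand) and CLK3 exon 4 at chr15:74622120-74622216 (plus strand). The exons of CLK1 and CLK4 were both 91 bases long and identical at 85 of 91 positions (93.4%). The other pairs of CLK exons were 61.9% to 66.0% identical in a global alignment. Whether reads from exon 4 map to both CLK1 and CLK4 was not tested, and how shared reads were handled is not given in the sources used here.

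Donor sites of 6 of the 16 introns annotated as retained are shown next, because they are the boundaries that a detained intron leaves uncut. They are intron 4 of the 3 CLK genes that have one annotated as retained, which follows exon 4, and the only such intron of ARGLU1, RSRP1 and OGT. Each line holds the last 10 exon bases and the first 20 intron bases, with the first 2 intron bases in capitals, read from the transcript that retains the intron.
CLK1 intron 4 donor: agtgcaagatGTatagaatatttttcaaca
CLK4 intron 4 donor: agagcaagatGTatagaatatttttcaaca
CLK3 intron 4 donor: caagagcgatGTacagccacctttcgtaaa
ARGLU1 intron 2 donor: agctagagagGTaacgctcggtcgtttgga
RSRP1 intron 3 donor: aaagcctgaaGTaagtattctaggtttgtc
OGT intron 4 donor: agaagccaagGTaggtgtttgatagaacac

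CLK1 intron 4 (chr2:200859747-200860124, 378 bases) and CLK4 intron 4 (chr5:178616949-178617343, 395 bases) shared 29 of these 30 bases. CLK3 intron 4 (chr15:74622217-74622493, 277 bases) shared 14 of 30 with CLK1 and 15 of 30 with CLK4. ARGLU1 intron 2 (chr13:106557132-106559431) spans 2300 bases, RSRP1 intron 3 (chr1:25243634-25245149) 1516 bases and OGT intron 4 (chrX:71544636-71547906) 3271 bases. All 16 introns began with GT. Where the counting used an annotation of this kind, reads inside these introns would count toward the gene, but the annotation behind the table is not given in the sources used here. Exons of CLK3, RSRP1, NKTR and PNISR also overlap exons of genes on the opposite strand. Among these are EDC3 for CLK3, TMEM50A and RHD for RSRP1, and SEC22C for NKTR. Exons of CLK4, RSRP1 and LUC7L3 overlap a small RNA, a pseudogene or an unclassified transcript on the same strand. The kit was stranded, but the strand setting and the handling of shared reads are not given in the sources used here. The values may therefore include reads of the overlapping genes or miss reads of the genes described.

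Values are in TPM, scaled per gene length and to the same total of 1000000 in every library, so the depth is unknown. Transcripts of the mitochondrial genome took a large part of that total. In AsPC-1 they took 41.2% with vehicle, 44.1% with roseoflavin, 42.2% with trametinib and 41.3% with both, and in PANC-1 25.6%, 23.7%, 24.8% and 22.8%. Roseoflavin alone thus went with a higher share in AsPC-1, and the other 3 matched comparisons with a lower one. The keratins KRT8, KRT18 and KRT19 were above 851 TPM in every library. EPCAM, an epithelial surface protein, ran from 1224 to 1485 TPM in AsPC-1, while PANC-1 had 14.5 to 16.8 TPM. Of the 4 fibroblast markers, which summed to 103 to 146 TPM (AsPC-1) and 101 to 109 TPM (PANC-1), LUM made up nearly all in AsPC-1 and COL1A1 in PANC-1, with DCN at most 0.083 TPM. PTPRC, PECAM1 and CDH5, which define leukocytes and endothelial cells, were at most 0.073 TPM, and CD68 ran from 108 to 139 TPM.

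Levels of the 10 genes differed by more than 10-fold within a line. OGT (ENSG00000147162, chrX:71533083-71575897), the enzyme that attaches O-GlcNAc to nuclear and cytosolic proteins, was the highest in both lines, with a mean of 101 TPM ± 15.0 (SD over the 4 treatments) in AsPC-1 and, in PANC-1, 114 TPM ± 2.49. CLK3 (3.78 TPM ± 0.579) and CLK4 (5.34 TPM ± 0.632) were the lowest in AsPC-1, and the same genes were lowest in PANC-1 (9.61 TPM ± 0.473 and 8.30 TPM ± 1.19). In AsPC-1 the order was OGT, ARGLU1, CLK1, CLK2, LUC7L3, RSRP1, PNISR, NKTR, CLK4 and CLK3, and the ranges of CLK1, CLK2, LUC7L3, RSRP1 and PNISR overlapped from each neighbour to the next. In PANC-1 it was OGT, LUC7L3, PNISR, CLK2, RSRP1, ARGLU1, CLK1, NKTR, CLK3 and CLK4, where RSRP1, ARGLU1 and CLK1 overlapped, as did CLK3 and CLK4. The level of CLK3 depends strongly on the gene length used, since all its annotated exons together span 11.1 times the bases of its main coding transcript, against 1.69 to 4.53 times for the other 9 genes.

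**Figure D1:**
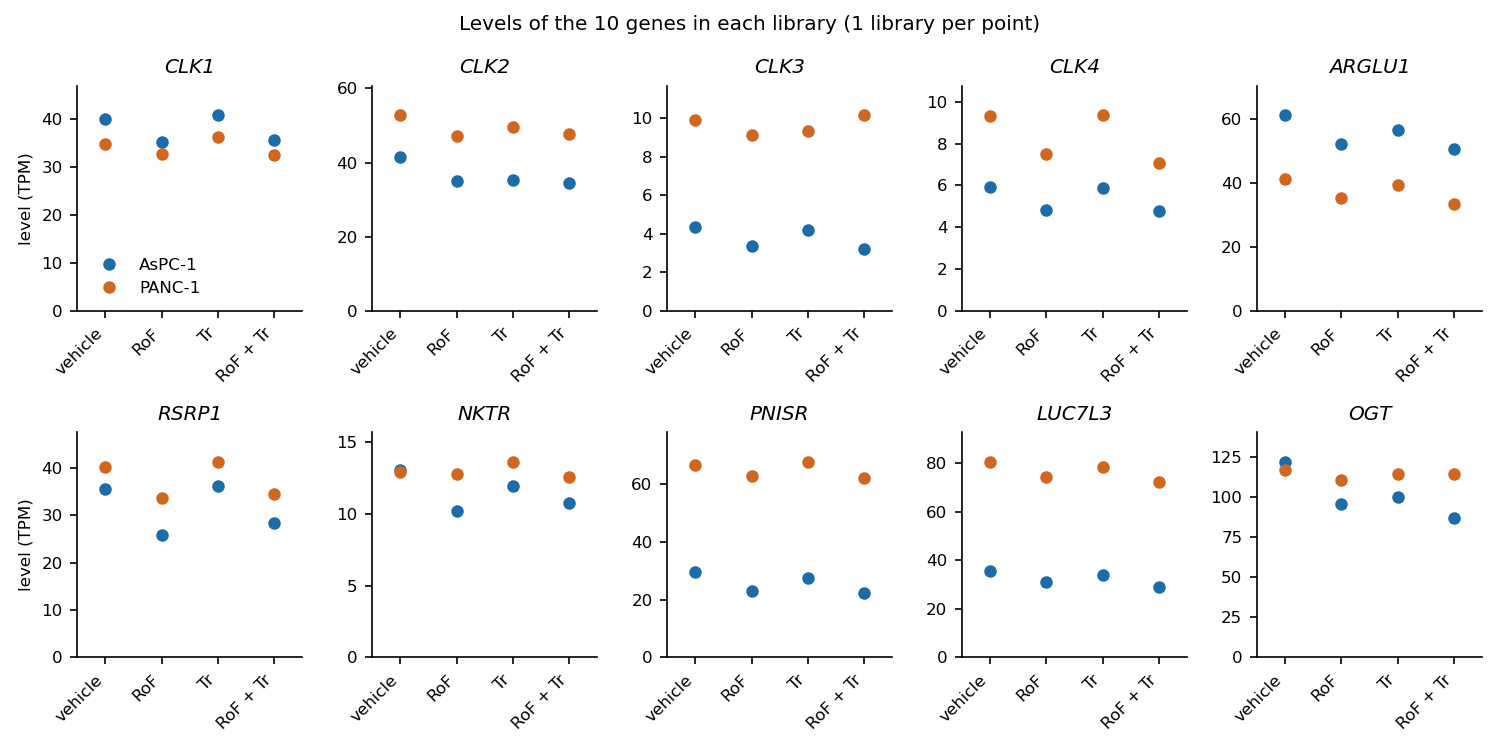
Level in TPM (y axis, from 0) of each of the 10 genes in the 8 libraries, by treatment (x axis: vehicle, RoF for roseoflavin, Tr for trametinib, RoF + Tr for both) and line (blue AsPC-1, orange PANC-1), with 1 library per point. In AsPC-1 the roseoflavin libraries lie below the other libraries for all 10 genes, and in PANC-1 for all but CLK3.

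The question put to these values was how each compound moved the genes in each line. With roseoflavin alone all 10 genes were lower than with vehicle in each line, where 61.5% of all tested genes were lower in AsPC-1 and 49.1% in PANC-1. On top of trametinib, roseoflavin gave lower values for 10 of 10 genes in AsPC-1 (51.3% of tested genes) and, in PANC-1, for 9 of 10 (47.3%). In AsPC-1 both libraries with roseoflavin lay below both without it for 10 of 10 genes, where 21.6% of all tested genes did so. In PANC-1 this held for 9 of 10, where 22.7% of all tested genes did so, and in both lines at once for the same 9, against 5.07% of tested genes. These counts describe the genes and are not a test, since the genes were proposed with their values in all 8 libraries known. They also take no account of the size of a gap. In PANC-1, OGT (114.84 against 114.87 TPM) and NKTR (12.75 against 12.86 TPM) were barely separated, as was CLK2 in AsPC-1 (34.99 against 35.37 TPM). No gene in the table passed a Benjamini-Hochberg adjusted p of 0.05 in limma for a compound, over both lines (0.0% of 19122 genes for roseoflavin and for trametinib), within a line or between the lines' responses. At an unadjusted p under 0.05 there were 1358 genes for roseoflavin over both lines, 2163 within AsPC-1 and 2074 within PANC-1. For trametinib the same counts were 938, 2691 and 919.

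Among the kinases, CLK1 (ENSG00000013441, chr2:200853009-200864744), the best-studied member of the family, was at 40.2 TPM with vehicle, 35.2 with roseoflavin, 40.8 with trametinib and 35.7 with both in AsPC-1. For PANC-1 the 4 values were 34.9, 32.8, 36.4 and 32.5 TPM. The 2 libraries with roseoflavin were the lowest in each line, and those with trametinib alone were the highest. Within AsPC-1 the roseoflavin change of CLK1 was -0.19 on the log2(TPM + 1) scale (SE 0.0415), and within PANC-1 it was -0.12 (SE 0.0415).

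CLK4 (ENSG00000113240, chr5:178602664-178630615), the closest relative of CLK1, was at 5.93 TPM with vehicle, 4.82 with roseoflavin, 5.85 with trametinib and 4.77 with both in AsPC-1. PANC-1 had 9.30, 7.48, 9.35 and 7.08 TPM. In each line its values formed 2 tight pairs, split by roseoflavin and nearly equal with and without trametinib. Its roseoflavin change was -0.25 (SE 0.0560) in AsPC-1 and -0.32 (SE 0.0560) in PANC-1, the lowest of the 10 values in PANC-1.

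CLK2 (ENSG00000176444, chr1:155262868-155278491) was at 41.5 TPM with vehicle in AsPC-1 and at 34.99, 35.4 and 34.5 TPM with roseoflavin, trametinib and both. The vehicle library stood above the other 3, which were close together. In PANC-1 CLK2 was at 52.7, 47.2, 49.5 and 47.7 TPM, with roseoflavin again in the lower pair. CLK3 (ENSG00000179335, chr15:74598500-74645414) was at 4.36, 3.34, 4.18 and 3.22 TPM in AsPC-1, and at 9.87, 9.10, 9.35 and 10.1 TPM in PANC-1. The CLK3 groups were apart in AsPC-1 (-0.30, SE 0.0761) and overlapped in PANC-1, where roseoflavin alone gave the lowest value and both compounds the highest.

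RSRP1 (ENSG00000117616, chr1:25242237-25338213), an arginine- and serine-rich protein, was at 35.4 TPM with vehicle, 25.8 with roseoflavin, 36.1 with trametinib and 28.4 with both in AsPC-1, and at 40.2, 33.6, 41.3 and 34.6 TPM in PANC-1. Its ratio of roseoflavin to vehicle was 0.728 for AsPC-1 and 0.835 for PANC-1, and that of both compounds to trametinib was 0.787 and 0.838. RSRP1 had the lowest roseoflavin change of the 10 genes in AsPC-1, -0.39 (SE 0.0465), and the second lowest after CLK4 in PANC-1, -0.25 (SE 0.0465).

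ARGLU1 (ENSG00000134884, chr13:106541673-106568164), a coactivator and splicing regulator whose own transcript carries a conserved retained intron, was at 61.2, 52.2, 56.6 and 50.7 TPM in AsPC-1 with vehicle, roseoflavin, trametinib and both. Its PANC-1 levels were 41.3, 35.3, 39.4 and 33.4 TPM. The roseoflavin libraries were lowest in both lines, and the changes were -0.19 (SE 0.0404) and -0.22 (SE 0.0404), so the change of ARGLU1, like that of CLK4, was as far from 0 in PANC-1 as in AsPC-1. LUC7L3 (ENSG00000108848, chr17:50719544-50756213), a factor related to the yeast U1 snRNP protein Luc7, was at 35.7, 31.2, 33.8 and 28.9 TPM in AsPC-1. The PANC-1 libraries were at 80.6, 74.3, 78.5 and 72.4 TPM. Its 4 values followed the same order in both lines: vehicle highest, then trametinib, then roseoflavin, then both.

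PNISR (ENSG00000132424, chr6:99398051-99425331), a serine- and arginine-rich partner of pinin, was at 29.6, 23.0, 27.6 and 22.3 TPM in AsPC-1 with vehicle, roseoflavin, trametinib and both. The level in PANC-1 was 66.4, 63.0, 67.7 and 62.0 TPM. The change was -0.32 (SE 0.0412) in AsPC-1 and -0.10 (SE 0.0412) in PANC-1. NKTR (ENSG00000114857, chr3:42600614-42648741), which carries a cyclophilin domain and arginine- and serine-rich stretches, was at 13.01, 10.2, 11.9 and 10.7 TPM in AsPC-1. PANC-1 levels were 12.9, 12.7, 13.6 and 12.6 TPM, where the vehicle library and the roseoflavin library nearly met.

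OGT was at 122 TPM with vehicle, 95.6 with roseoflavin, 100.3 with trametinib and 87.0 with both in AsPC-1. For PANC-1 it was 117, 111, 115 and 115 TPM. The AsPC-1 vehicle library was the highest of all 8 and each compound alone was lower, while in PANC-1 the library with both compounds (114.84 TPM) was barely below that with trametinib (114.87 TPM). The roseoflavin change was -0.28 (SE 0.0537) in AsPC-1 and -0.04 (SE 0.0537) in PANC-1. OGA, the enzyme that removes O-GlcNAc, gave a ratio of OGT to OGA of 1.84 with vehicle, 1.60 with roseoflavin, 1.51 with trametinib and 1.46 with both in AsPC-1. In PANC-1 the same ratio, which does not depend on the scaling of a library, was 1.13, 1.03, 1.12 and 1.07.

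**Figure D2:**
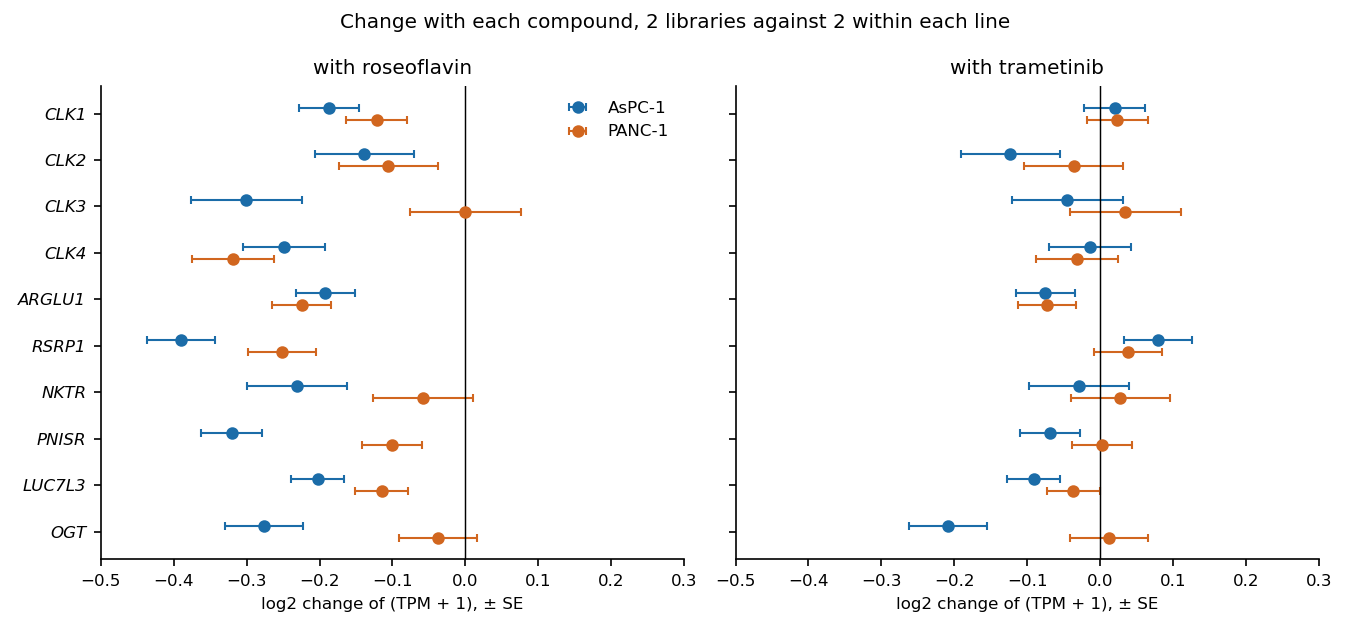
Change on the log2(TPM + 1) scale (x axis) of each of the 10 genes (y axis) with roseoflavin (left) and trametinib (right) within AsPC-1 (blue) and PANC-1 (orange), 2 libraries against 2. Bars are the standard error of the limma fit. The roseoflavin changes in AsPC-1 run from -0.39 to -0.14, and those with trametinib lie closer to 0 apart from OGT in AsPC-1 at -0.21.

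Over the 10 genes the median roseoflavin change was -0.24 in AsPC-1, where the median of all tested genes was -0.03, and -0.11 in PANC-1, where it was 0. The 2 comparisons that make up each value shared no library: in AsPC-1 the median change was -20.0% for roseoflavin against vehicle and -13.8% for both compounds against trametinib. In PANC-1 the medians were -7.79% and -8.05%. The largest single changes were -27.2% for RSRP1 in AsPC-1 and -24.2% for CLK4 on top of trametinib in PANC-1. At or below 0.8 times the vehicle level (as TPM + 1) with roseoflavin alone were 3 of 10 genes in AsPC-1, against 10.9% of tested genes, and 0 of 10 in PANC-1, against 6.31%.

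Every other gene's TPM moves against the mitochondrial share. With TPM rescaled without mitochondrial genes, the 10 genes had a median change of -0.23 within AsPC-1 and -0.15 within PANC-1. Both roseoflavin libraries then lay below both others for 9 of 10 genes in each line (18.5% of tested genes in AsPC-1 and 30.7% in PANC-1), with CLK2 overlapping in AsPC-1 and CLK3 in PANC-1. This held in both lines for 8 of 10 genes, against 5.59% of tested genes.

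The difference between the lines in the roseoflavin response, taken as the change in PANC-1 less that in AsPC-1, passed for 0 of 19122 genes in limma and had an unadjusted p under 0.05 for 2227. It was 0.30 for CLK3 (SE 0.108), 0.24 for OGT (SE 0.0760), 0.22 for PNISR (SE 0.0583) and 0.17 for NKTR (SE 0.0967). It was -0.03 for ARGLU1 (SE 0.0571) and -0.07 for CLK4 (SE 0.0791), each closer to 0 than its standard error. Under quantile normalization the differences were 0.21 for CLK3, 0.19 for OGT, 0.15 for PNISR, 0.13 for NKTR, -0.06 for ARGLU1 and -0.14 for CLK4. The median difference over the 10 genes was 0.11 as deposited, 0.07 under quantile normalization and 0.055 without mitochondrial genes. When the fit was limited to 7907 RefSeq mRNAs averaging 10 TPM or more, a filter chosen after seeing the data, the calls within AsPC-1 included 3 of the 8 genes kept. RSRP1, PNISR and OGT passed as lower with roseoflavin (adjusted p in limma 0.013, 0.0218 and 0.0408), where 1.75% of the genes did so. The 10 genes were chosen with these values known, so the calls are no test of them. In the fit over all 19122 genes their adjusted p in limma within AsPC-1 was 0.355, 0.355 and 0.380. In PANC-1 0 of 8 passed with that filter, against 0.139% called lower.

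With trametinib no gene of the 10 had separate groups in either line, in either direction. Lower values in both trametinib libraries were seen for 13.3% of tested genes (AsPC-1) and 11.6% (PANC-1), and higher values for 24.0% and 16.1%. Against vehicle, trametinib gave lower values for 8 of 10 genes in AsPC-1 (46.9% of tested genes) and 5 of 10 in PANC-1 (45.2%), and on top of roseoflavin for 7 of 10 (34.9%) and 6 of 10 (43.6%). The median trametinib change was -0.06 within AsPC-1, where all tested genes had 0.02. It was -0.03 without the AsPC-1 vehicle or trametinib library and -0.09 without either of the other AsPC-1 libraries. Within PANC-1 both medians were 0.01, and that of the 10 genes was -0.0089 without mitochondrial genes, -0.01 under quantile normalization and below 0 without any 1 of the PANC-1 libraries. OGT had the lowest value, -0.21 (SE 0.0537) in AsPC-1, with -17.9% for trametinib against vehicle and -8.97% on top of roseoflavin. The OGT value in PANC-1 was 0.01 (SE 0.0537). RSRP1 was higher with trametinib in all 4 matched comparisons, by 1.82% against vehicle and 10.1% on top of roseoflavin for AsPC-1, and by 2.55% and 2.95% for PANC-1.

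Both compounds against vehicle gave lower values for 10 of 10 genes in AsPC-1 (47.5% of tested genes were lower) and for 9 of 10 in PANC-1 (45.9% of tested genes), with CLK3 at 2.69% above vehicle. The medians were -19.2% (AsPC-1) and -8.14% (PANC-1). These comparisons share the vehicle library with those of each compound alone, and the medians for roseoflavin alone were -20.0% and -7.79%.

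The balance among the CLK kinases was compared within each library, where scaling plays no part. CLK1 and CLK2 together made up most of the CLK total. CLK1 held 43.7% to 47.3% of it in AsPC-1 and 32.7% to 34.8% in PANC-1. CLK2 held 41.0% to 45.1% in AsPC-1 and 47.3% to 49.4% in PANC-1. CLK3 held 4.13% to 4.85% in AsPC-1 and 8.93% to 10.4% in PANC-1. None of these ranges overlapped between the lines, nor did that of CLK4. CLK4 held 6.44% with vehicle and 6.79% with trametinib in AsPC-1, against 6.15% with roseoflavin and 6.11% with both. In PANC-1 CLK4 held 8.71% and 8.93%, against 7.74% and 7.27%. The ratio of CLK1 to CLK4 was 6.78 with vehicle, 7.31 with roseoflavin, 6.98 with trametinib and 7.48 with both in AsPC-1, while PANC-1 had 3.75, 4.39, 3.89 and 4.59. In each line both roseoflavin libraries had a higher ratio than both others. The summed CLK level was 91.9, 78.4, 86.2 and 78.1 TPM in AsPC-1 and 106.8, 96.5, 104.6 and 97.4 TPM in PANC-1.

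**Figure D3:**
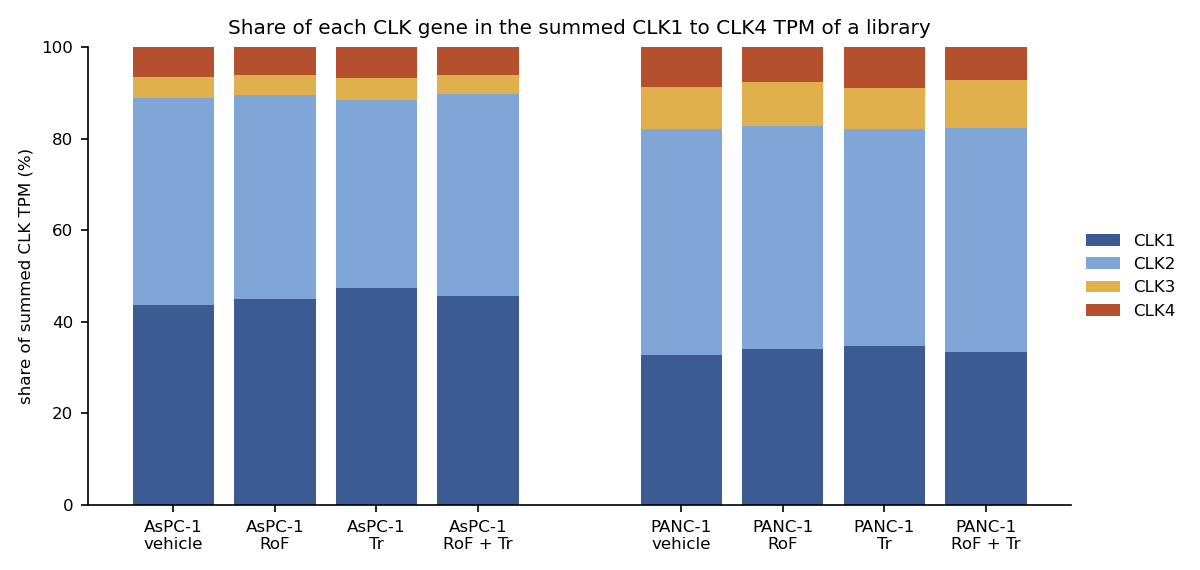
Share in percent (y axis, stacked to 100) of CLK1, CLK2, CLK3 and CLK4 in the summed TPM of the 4 kinases, for each of the 8 libraries (x axis: line and treatment, RoF for roseoflavin and Tr for trametinib). CLK1 holds a larger share in AsPC-1 (43.7% to 47.3%) than in PANC-1 (32.7% to 34.8%), and CLK2, CLK3 and CLK4 hold smaller ones.

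Between the lines, 9 of the 10 genes passed in limma, at a background of 83.8% of all tested genes, so most genes of the table differed. Of the 16027 genes called, 11917 were higher in PANC-1 and 4110 lower, a split that became 7963 and 7177 under quantile normalization, and the median of all tested genes was 0.55 higher in PANC-1. Without mitochondrial genes that median was 0.25, and with quantile normalization 0.04. PNISR was higher in PANC-1 by 1.31 (SE 0.0560), LUC7L3 by 1.22 (SE 0.0362) and CLK3 by 1.16 (SE 0.0800). With quantile normalization these were still 0.84, 0.76 and 0.60. ARGLU1 was lower in PANC-1 (-0.55, SE 0.0320), as was CLK1 (-0.15, SE 0.0346), and both were lower still without mitochondrial genes (-0.94 and -0.53). The sign for OGT, RSRP1 and NKTR turned negative under both rescalings, and that for CLK2 and CLK4 under quantile normalization, so no direction is given for these 5 genes.

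Related lists were described in the same way, none of them holding a gene called for a compound. They too were chosen with earlier results of these data known, so their counts are no test. Of 18 other transcripts known for retained or detained introns, 15 were lower with roseoflavin in AsPC-1 (median -0.14) and 16 in PANC-1 (median -0.14). Without mitochondrial genes the counts were 14 (median -0.12) and 16 (median -0.17). Under quantile normalization they were 15 (median -0.10) and 16 (median -0.15). In 10 of the 18 transcripts both roseoflavin libraries lay below both others in both lines, against 5.07% of all tested genes. These were DDX17, CCNL1, CCNL2, RBM5, RBM6, TIA1, HNRNPH1, FNBP4, NXF1 and ZNF692. Such a separation in both lines was also seen for 3 of 13 genes of SR proteins and TRA2. It was seen for 2 of 14 RS-domain and nuclear speckle genes and 2 of 7 genes of the U1 snRNP and LUC7 family. The count was 1 of 12 for other kinases of SR proteins and CLK relatives. For the O-GlcNAc list it was 0 of 6, and for MALAT1 and NEAT1 0 of 2. TIA1, an RNA-binding protein of splicing and stress granules, had the lowest change in AsPC-1 (-0.27, and -0.14 in PANC-1). RBM5, a splicing regulator, was at -0.25 and -0.12. With trametinib 17 of the 18 were lower in AsPC-1 (median -0.09) and 11 in PANC-1 (median -0.0044). The PANC-1 count was 14 without mitochondrial genes (median -0.02) and 13 under quantile normalization (median -0.01).

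SR proteins, the substrates of the CLK kinases, were listed together with the TRA2 genes. This list was lower with roseoflavin for 9 of 13 tested genes in AsPC-1 (median -0.02) and for 13 of 13 in PANC-1 (median -0.15). The AsPC-1 count became 6 of 13 and the median 0.01 without mitochondrial genes, and 6 of 13 and 0.0037 under quantile normalization, so no direction is given for that line. SRSF11 was at -0.28 in AsPC-1 and -0.15 in PANC-1, SRSF2 at 0.06 and -0.21, and SRSF6 at -0.03 and -0.19. Of the 12 other kinases of SR proteins and CLK relatives, 10 were lower in AsPC-1 (median -0.10) and 8 in PANC-1 (median -0.04). The AsPC-1 values were 8 and -0.05 under quantile normalization, and the PANC-1 median was -0.07 without mitochondrial genes. PRPF4B, a kinase of the pre-mRNA splicing machinery, was at -0.15 and -0.20, SRPK3 at -0.13 and -0.13, and HIPK3 at -0.15 and -0.0043. With trametinib 11 of these 12 kinases were higher in AsPC-1 (median 0.11) and 12 of 12 in PANC-1 (median 0.06), or 9 of 12 in PANC-1 under either rescaling.

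Of 14 RS-domain and nuclear speckle genes, 11 were lower in AsPC-1 (median -0.05) and 13 in PANC-1 (median -0.09). Under quantile normalization the AsPC-1 count was 9 and the median -0.02, and without mitochondrial genes they were 11 and -0.03. RBM39 was at -0.21 and -0.12, SRRM2, a core speckle scaffold, at -0.18 and -0.12, and ACIN1 at -0.08 and -0.18. Of 7 genes of the U1 snRNP and the LUC7 family, 5 were lower in each line (medians -0.08 and -0.03), or 7 of 7 in PANC-1 without mitochondrial genes (median -0.06). The AsPC-1 median was -0.05 under either rescaling. LUC7L, a paralogue of LUC7L3, was at -0.16 and -0.15, PRPF39 at -0.21 and -0.10, and TIAL1 at -0.21 and -0.03.

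Of the 6 genes of O-GlcNAc cycling and the hexosamine pathway, 4 were lower and 1 higher in AsPC-1 (median -0.10), with 0 lower in PANC-1 (median 0.06), or 1 lower in PANC-1 without mitochondrial genes (median 0.02). OGA was at -0.15 in AsPC-1 and 0.06 in PANC-1, UAP1 at -0.11 and 0.04, and GFPT1, the first enzyme of the hexosamine pathway, at -0.10 and 0.31. GFPT2 had a listed value of 0 in each AsPC-1 library. None of the 6 passed in limma for the difference between the lines' roseoflavin responses (smallest adjusted p 0.336).

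MALAT1 and NEAT1 are long noncoding RNAs that stay in the nucleus. MALAT1 was at 175 TPM with vehicle, 123 with roseoflavin, 120 with trametinib and 111 with both in AsPC-1, and at 243, 175, 241 and 168 TPM in PANC-1. Its 2 roseoflavin libraries were the lowest in PANC-1 and overlapped the others in AsPC-1. NEAT1 was at 121, 87.8, 92.3 and 86.4 TPM in AsPC-1 and at 96.5, 102, 96.9 and 101 TPM in PANC-1, so it was lower with roseoflavin in AsPC-1 and higher in PANC-1. The part of nuclear RNA content in the values of the 10 genes was not tested.

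**Figure D4:**
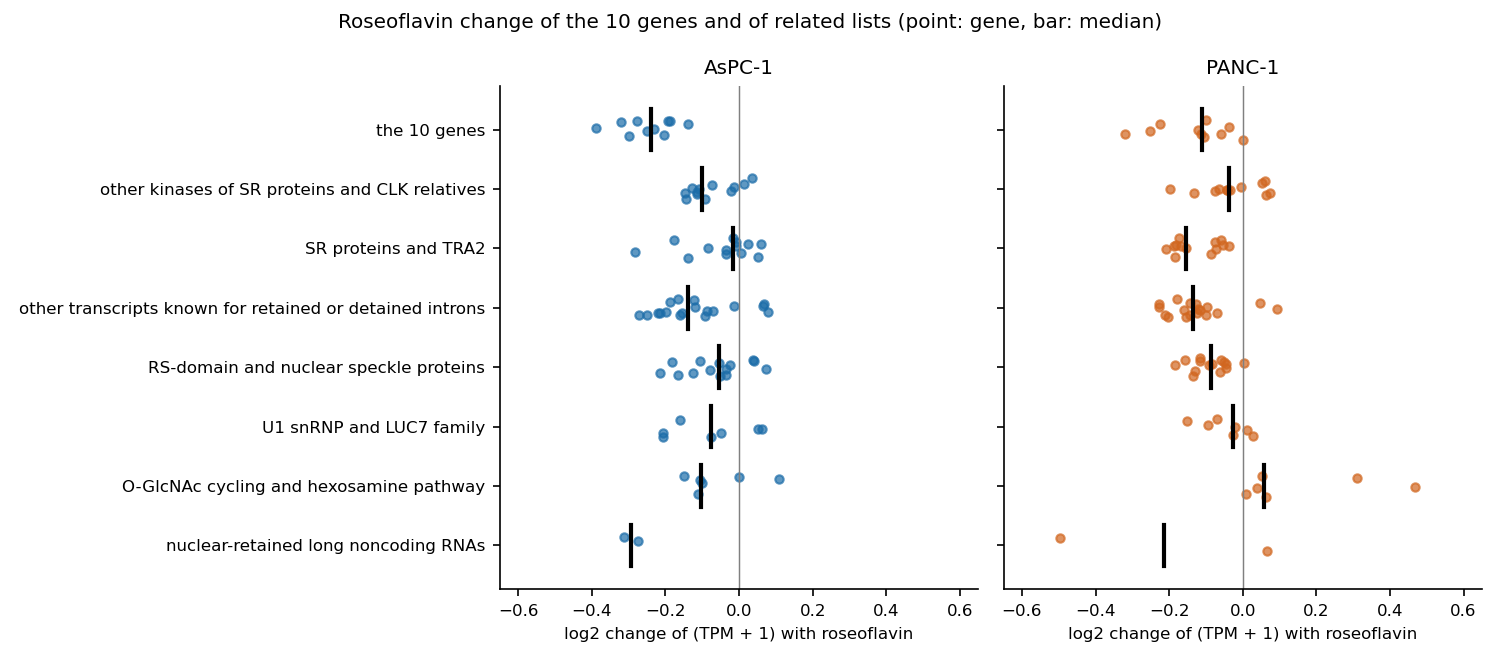
Roseoflavin change on the log2(TPM + 1) scale (x axis) within AsPC-1 (left) and PANC-1 (right) for the 10 genes and 7 related lists (y axis), with a point per gene and a bar at the median. The 10 genes have a median of -0.24 (AsPC-1) and -0.11 (PANC-1), and the O-GlcNAc list is the one whose median is above 0 in PANC-1.

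The 10 genes varied together across treatments. After centring each gene within each line, all 45 pairs of the 10 genes had a positive Pearson r over the 8 libraries, from 0.534 (CLK3 and CLK4) to 0.975, with a median of 0.827. The libraries are the same for every gene and share 1 total, and the genes were chosen with these values known, so r is a description. Among 8622 other named genes averaging 10 TPM or more, the pattern most like the mean of the 10 was that of RBM39 (r = 0.999), a gene of the speckle list. It was at 80.0, 67.6, 75.7 and 66.3 TPM in AsPC-1 with vehicle, roseoflavin, trametinib and both, and at 72.7, 66.9, 72.6 and 67.0 TPM in PANC-1. SELENOW (r = 0.990), RBM5 (0.987), ADAM8 (0.985) and HP1BP3 (0.982) followed. For CLK1 alone the 5 closest genes were HSPA8 (0.985), TIA1 (0.984), CHORDC1 (0.981), ERBB2 (0.981) and TTC14 (0.980). RBM5 and TIA1 also stood in the list of retained-intron transcripts.

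**Figure D5:**
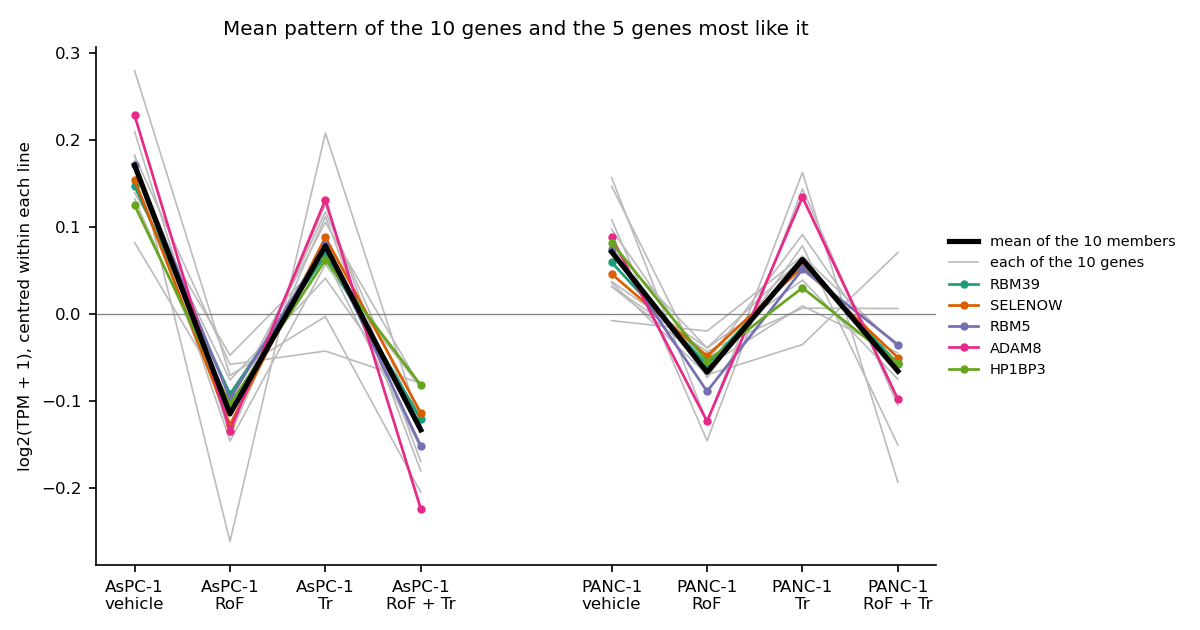
Level on the log2(TPM + 1) scale, centred within each line (y axis), in the 8 libraries (x axis: line and treatment, RoF for roseoflavin and Tr for trametinib) for the mean of the 10 genes (black), each of them (grey) and the 5 other genes most like the mean (colours). The mean is lowest in the roseoflavin libraries of both lines, and RBM39 follows it with r = 0.999 over 8 libraries.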

How the data were processed

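The deposited table holds TPM for 62649 genes in 8 libraries, per the file headers, after 985926 blank rows were dropped. The submitters' processing notes name STAR 2.7.3a, HTSeq 2.0.2 and hg38. The annotation, the step from reads to TPM and the strand setting are not given in the sources used here. Libraries were made with a stranded kit for polyadenylated RNA, per the labels' protocols. TPM keeps no depth, so no counting error could be given.

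Values were fitted as log2(TPM + 1), a scale that understates changes of low genes, for the 19122 genes that reached 1 TPM in 2 or more of the libraries, with limma 3.58.1 in R 4.3.3 (trend in the prior variance) and Benjamini-Hochberg adjustment at 0.05. Effects over both lines came from an additive model of line, roseoflavin and trametinib (4 residual degrees of freedom). Effects within a line, and their difference, came from a model with line by compound terms (2 residual degrees of freedom). With 1 library per group, the other factors serve as replication, so the models assume that the compounds act additively on the log2 scale. The p-values and standard errors measure departures from that additivity among these libraries, not the spread between repeats. The additive model also counts differences between the lines' responses as spread. In the model by line, the standard error of a gene is pooled over both lines. The fits were run on simulated data with seeded roseoflavin changes, equal in both lines, to check the direction and size of the estimates. The noise there was independent between genes and libraries, unlike what real libraries may hold. The share of seeded changes that passed the threshold is not reported here, so the run does not say how to read a count of 0 genes.

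The 10 genes and the lists were chosen with earlier results of these data known. All 10 are named. From each list the text names genes past the threshold, or else up to 3 with the largest roseoflavin change in either line whose mean reached 5 TPM. One gene that this rule names is not reported here. Likeness is Pearson's r of values centred within lines, among genes whose mean reached 10 TPM. The genes set apart by separate groups in both lines, and those given for their own sake (MALAT1, NEAT1, GFPT2), were named after their values were seen where the rule did not name them. Alternatives were a pseudocount of 0.1, other filters, quantile normalization, TPM without mitochondrial genes, no block for the line, and leaving out each library.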

Additional observations from a re-analysis of the deposited data

How the results depend on the processing

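For the compounds, the count of 0 genes past the threshold held under the other pseudocount, no filter, a filter on the mean, both scalings, no block for the line and leaving out each library in turn. With only RefSeq mRNAs of a mean of at least 10 TPM, added after seeing the data, the counts were 163 for roseoflavin within AsPC-1, 117 within PANC-1, 158 for how the roseoflavin response differed between lines, 332 for trametinib within AsPC-1 (250 higher and 82 lower), 0 within PANC-1, 1 for trametinib over both lines and 2 for how the trametinib response did. For PANC-1 against AsPC-1 that filter gave 7236 genes and a filter on the mean alone 8388, because fewer genes were tested, and leaving out 1 library gave 15618 to 15789. CLK3 and CLK4 have means under 10 TPM and drop out of both filters.

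The median change of the 10 genes with roseoflavin in AsPC-1 was -0.18 under quantile normalization and ran from -0.28 to -0.21 when 1 library was left out. In PANC-1 it was -0.15 without mitochondrial genes. The median difference of PANC-1 minus AsPC-1 was 0.34, or 0.22 under both filters, and reversed to -0.13 under quantile normalization and -0.0431 without mitochondrial genes. Under quantile normalization CLK2 reversed to -0.0434, CLK4 to -0.0012, RSRP1 to -0.22 and NKTR to -0.37, and without mitochondrial genes RSRP1 reversed to -0.13 and NKTR to -0.20. OGT, not called as deposited, went from 0.18 to -0.25 and -0.20. The cause was not tested. Of 544 changes of single genes with a compound under the alternatives, 447 moved by less than the residual SD and 97 did not. Part of the 447 could not have moved. A filter leaves a gene's estimate as it was, and leaving out a library of 1 line does the same for changes within the other. The count is therefore no measure of stability. No paired analysis was possible because, for a block by replicate number, the labels give no replicate numbers, and the models instead match libraries by line and by the other compound.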
